A study of Homo sapiens with 12 samples.

Results

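The RNA of 10 amino acid transporters was measured in A375 cells, an established human skin melanoma line, during and after exposure to inhibitors of the MAPK pathway (MAPKi). The members were chosen by gene symbol from a table of 44659 genes: SLC7A5, SLC3A2, SLC7A11, SLC7A1, SLC1A4, SLC1A5, SLC1A3, SLC38A1, SLC38A2 and SLC6A9. The rule uses no measured value, but the genes were picked with earlier results of these data known. All 10 were listed, and 9 of them had enough reads to be tested with 15916 genes in all. SLC6A9 was the member below that filter, which asked for a mean count of at least 10 after scaling to library size.

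There were 4 groups of 3 libraries. Control cells (CC) were kept for 72 h with DMSO alone. Treated cells (TC) were kept for 72 h with the BRAF inhibitor vemurafenib (500 nM) and the MEK inhibitor cobimetinib (500 nM) and were harvested directly from the drugs. Persister cells (PC) had the same exposure and then grew for 2 days in drug-free medium, and recovered cells (RC) for 9 days. All cells grew in DMEM with serum and added glutamine, so none of the groups was starved of an amino acid by design. The DMSO cells were harvested at day 0, and the time in culture of PC and RC therefore cannot be told apart from the withdrawal of the drugs. The labels give replicate numbers, and the sample descriptions a further number for each replicate that recurs in all 4 groups. What these numbers stand for is not stated. The p-values measure the spread between these libraries of 1 line.

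Amino acids cross the plasma membrane through carriers that differ in substrate and in driving force. Exchangers such as SLC7A5 and SLC1A5 take up one amino acid by releasing another, whereas the sodium-coupled carriers SLC38A1 and SLC38A2 import glutamine and other neutral amino acids on a net basis. SLC3A2 (CD98 heavy chain) carries no substrate itself and brings SLC7A5 and SLC7A11 to the cell surface. Several of these genes are textbook targets of ATF4, the transcription factor of the amino acid response, which binds C/EBP-ATF response elements with C/EBP partners. MYC is another known activator of SLC7A5, SLC3A2 and SLC1A5, and the oxidative stress factor NRF2, encoded by NFE2L2, of SLC7A11.

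Promoter windows from RefSeq (GRCh38.p14), each running from 250 bases before to 50 bases after a start site, were matched for 9 of the 10 members, all but SLC7A11, and gave 17 windows because several genes have more than 1 start site. The letters TGATGNAAN, a form of the C/EBP-ATF response element, were searched on both strands. They occurred in 3.61% of the 35116 windows of all genes and in 6 of the 17 windows of the members, 1 each for SLC1A4, SLC1A3, SLC3A2, SLC38A1, SLC7A1 and SLC1A5. The matches are shown because these 6 genes include both members that fell strongly under MAPKi and members that moved little. Each is written on the strand of its gene, with the match in capitals.
SLC38A1 (chr12:46266502-46266530, minus strand): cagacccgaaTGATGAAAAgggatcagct
SLC7A1 (chr13:29595663-29595691, minus strand): ggcgcactgcTGATGAAACctggcgccgg
SLC1A5 (chr19:46784893-46784921, minus strand): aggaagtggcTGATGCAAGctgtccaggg
SLC1A3 (chr5:36596358-36596386, plus strand): aggaaatgacTGATGCAAAgcagggttaa
SLC1A4 (chr2:64989381-64989409, plus strand): gcggctcccgTTTGCATCAtctccagccg
SLC3A2 (chr11:62881725-62881748, plus strand): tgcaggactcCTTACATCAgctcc
In SLC1A4 and SLC3A2 the element lies on the strand opposite to the gene. The windows of SLC7A5, SLC38A2 and SLC6A9 did not hold these letters.

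The letters CACGTG, the E-box that MYC family proteins bind, occurred in 7.26% of all windows and, among the members, in 1 window each of SLC7A5 and SLC1A5. Both are shown because SLC7A5 stayed near its control level under MAPKi whereas SLC1A5 fell far below it.
SLC7A5 (chr16:87869622-87869647, minus strand): ccggacgacgCACGTGctccgagctg
SLC1A5 (chr19:46787328-46787353, minus strand): cgggagtggtCACGTGgacaggacgg
The core of the antioxidant response element, TGACNNNGC, was found in windows of 5 of the 9 matched members (SLC7A5, SLC3A2, SLC7A1, SLC1A5 and SLC1A3), 1 window each, and in 13.3% of all windows, or in windows of 16.1% of all genes. No match overlapped a match of another of the 3 motifs. A match is a run of letters and was not tested as a binding site.

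The libraries held between 37773389 and 55567097 counted reads. The melanoma marker SOX10 was present in all groups, with group means of 552.5 to 1046 CPM (reads per 1e6 reads, scaled to the normalized library size), as was MITF, with means of 221 to 362 CPM, whereas MLANA and TYR had means of 0.524 to 4.87 CPM and PRAME was at or near 0. Of the 10 tested melanoma markers, 7 rose and 1 (S100B) fell in TC relative to CC, when 33.2% of all tested genes rose and 34.7% fell. The pigment genes DCT (from a mean of 407 to 6452 CPM) and PMEL (from 70.1 to 615.5 CPM) rose most, and their RC means were 421 and 39.6 CPM. The part of these changes in the results on the transporters was not tested. The 10 markers of other cell types summed to 4.44 to 18.8 CPM per library, and INS was at 0 in each. They were highest in CC, at 11.7 to 18.8 CPM, where KRT8 and VWF made up most of the sum. The part of these markers in the results was not tested. All 10 genes of the MAPK output list fell in TC relative to CC, including the ERK feedback gene SPRY4 (444 CPM in CC, 1.65 in TC, means of 3) and the ERK-driven factor ETV4 (235 CPM in CC, 2.61 in TC).

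In control cells, the transporters spanned several orders of magnitude in reads per kilobase of exon. SLC7A5 had the highest level, 173 ± 51.0 CPM per kb (SD, n = 3), followed by SLC1A5 with 143 ± 34.0 and SLC1A4 with 107 ± 22.3. SLC38A2, SLC3A2, SLC38A1, SLC7A1 and SLC7A11 lay between 62.7 and 25.6 CPM per kb, and the SDs of neighbours in this order overlapped. SLC1A3, a glutamate carrier best known from glia, reached 0.254 CPM per kb and the glycine transporter SLC6A9 0.0321. The place of SLC3A2 depended on the length used. Its annotated exons cover 6392 bases and its canonical transcript 1885. On the canonical lengths it led in CC with 199 CPM per kb, before SLC7A5 with 181. The level of SLC1A3 on its canonical length was 1.38 CPM per kb, still above only SLC6A9.

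MAPKi lowered the RNA of most transporters, but not to the same degree. In TC relative to CC, 7 of the 9 tested members fell and none rose at an adjusted p under 0.05, when 34.7% of all tested genes fell and 33.2% rose. Beyond 1.5-fold, 6 members fell and none rose, against 19.3% and 16.1% of all genes. The median log2 fold change of the 9 members was -2.05, and that of all tested genes was -0.02. SLC38A1, SLC7A1, SLC1A5, SLC7A11, SLC1A3 and SLC38A2 made up the 6, SLC1A4 fell by less, and SLC3A2 and SLC7A5 did not pass the test. Since RNA was taken from whole cultures, fewer cells expressing a gene and less RNA of it per cell cannot be told apart.

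**Figure D1:**
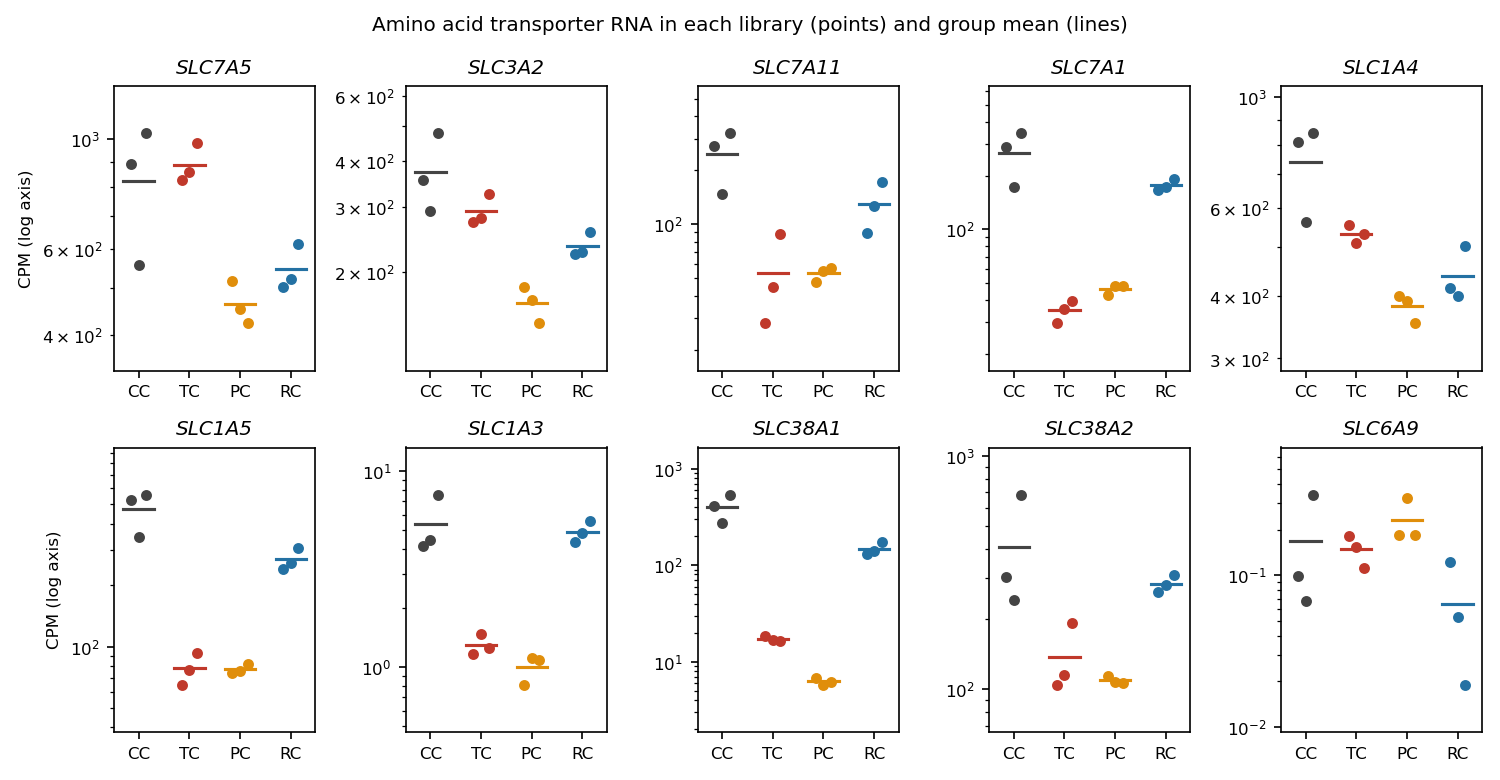
Level of each of the 10 transporters in CPM on a log axis (vertical, with its own range in each panel) in the 4 groups (horizontal). Points are the 3 libraries of a group in replicate order and lines are group means. SLC38A1 dropped from a mean of 405 CPM in CC to 17.1 in TC and 6.24 in PC, while SLC7A5 stayed at a mean of 888 CPM in TC.

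The large neutral amino acid transporter LAT1 is a pair of SLC7A5, the transporting light chain that imports leucine and other essential amino acids, and SLC3A2. SLC7A5 had 889.9, 555 and 1028 CPM in the CC libraries, 825, 857 and 982 in those of TC, 516, 452 and 423 in those of PC and 501, 520 and 612 in those of RC. The TC libraries lay within the CC range, whereas each PC library lay below each CC and each TC library. Relative to CC, the log2 fold change was 0.11 (SE 0.18, adjusted p = 0.615) in TC, and without CC replicate 2, the lowest control, it was -0.11. In PC, the log2 fold change of SLC7A5 was -0.83 (SE 0.18, adjusted p = 0.0013), and it was also lower in PC than in TC by 0.94 (adjusted p = 0.00269). A fall of SLC7A5 was thus called after 2 drug-free days and not after 72 h with the drugs.

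The heavy chain SLC3A2 had 357, 293 and 476 CPM in the CC libraries, 273, 280 and 325 in those of TC, 182.5, 169 and 145 in those of PC and 224, 226 and 257 in those of RC. CC and TC overlapped through 1 library each, and the log2 fold change was -0.36 (SE 0.15, adjusted p = 0.0516). This missed the threshold narrowly: without CC replicate 2 it was -0.51 (adjusted p = 0.00558) and without TC replicate 3 it was -0.44 (adjusted p = 0.0392). In PC, SLC3A2 fell by 1.18 relative to CC (adjusted p = 2.08e-05) and by 0.82 relative to TC (adjusted p = 0.00204), with no overlap in either comparison. Both chains of LAT1 had their lowest group mean in PC, although the PC and RC libraries of SLC7A5 overlapped.

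SLC7A11 (xCT), the light chain that exchanges cystine for glutamate in complex with SLC3A2, followed another course. Its level was 272, 147 and 321 CPM in the CC libraries, 28.0, 44.4 and 88.2 in those of TC, 47.7, 55.2 and 57.1 in those of PC and 89.7, 126 and 171 in those of RC. All TC and PC libraries lay below all CC libraries, and replicate 3 lay above the other TC libraries. Relative to its mean, the level varied most in TC (CV 58.1%, against 36.3% in CC). SLC7A11 fell in TC to 21.8% of its control level (adjusted p = 0.000318), with a log2 fold change of -2.77 when TC replicate 3 was left out. In PC the log2 fold change was -2.21 (SE 0.39, adjusted p = 0.000295), and PC and TC differed by -0.01 (SE 0.38, adjusted p = 0.989), a difference that became 0.56 (adjusted p = 0.272) without TC replicate 3. On the opposite strand, the antisense gene SLC7A11-AS1 shares 865 bases of exon with SLC7A11, and whether counting used the strand was not given in the sources used here.

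Because both light chains share 1 heavy chain, their reads were set against those of SLC3A2 within each library. There were 1.89 to 2.50 SLC7A5 reads per SLC3A2 read in CC, 3.02 to 3.06 in TC, 2.68 to 2.91 in PC and 2.24 to 2.38 in RC. The TC and PC ranges lay above that of CC, and RC lay within it. For SLC7A11 the order was the reverse, with 0.503 to 0.763 reads per SLC3A2 read in CC, 0.103 to 0.271 in TC, 0.261 to 0.393 in PC and 0.400 to 0.667 in RC. These are ratios of read counts and not of molecules, since the genes differ in length, and the ratios were not tested.

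**Figure D2:**
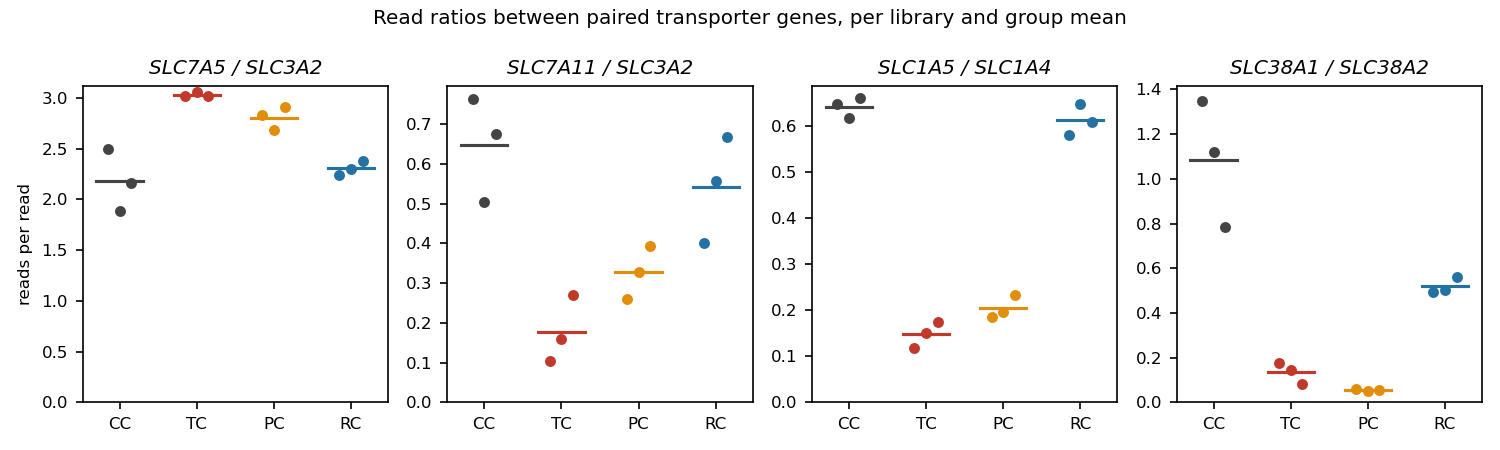
Reads of one transporter gene per read of another (vertical, a ratio without unit, from 0) in the 4 groups (horizontal). Points are the 3 libraries of a group and lines are group means. From CC to TC the SLC7A5 to SLC3A2 ratio moved from a mean of 2.18 to 3.03, while SLC7A11 to SLC3A2, SLC1A5 to SLC1A4 and SLC38A1 to SLC38A2 all had lower means in TC.

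SLC7A1 (CAT1), the main importer of arginine and lysine, works without a heavy chain. It had 291, 172 and 345 CPM in the CC libraries, 29.6, 35.75 and 39.8 in those of TC, 42.5, 48.1 and 47.8 in those of PC and 166, 173 and 191 in those of RC. The PC libraries were all above the TC libraries, and both groups were far below CC. SLC7A1 fell by 2.94 in TC (SE 0.21, adjusted p = 1.21e-07), a 7.67-fold drop, and had a log2 fold change of -2.54 in PC (adjusted p = 3.50e-07). The difference of 0.40 between PC and TC had an adjusted p of 0.179 and passed the threshold without CC replicate 2 (0.40, adjusted p = 0.0203), a library that enters that comparison only through the shared estimate of the spread.

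The exchangers SLC1A4 (ASCT1) and SLC1A5 (ASCT2) belong to the same family and differ in substrate: ASCT1 carries alanine, serine, cysteine and threonine, and ASCT2 carries glutamine as well. SLC1A5 had 526, 347 and 556 CPM in the CC libraries, 64.7, 76.5 and 93.3 in those of TC, 74.05, 76.15 and 82.0 in those of PC and 241, 258 and 307 in those of RC. It fell by 2.61 in TC (SE 0.18, adjusted p = 8.92e-08) and by 2.62 in PC (SE 0.18, adjusted p = 7.91e-08), to 16.4% and 16.3% of the control level. The PC range lay within that of TC, and the difference between these groups was -0.01 (SE 0.17, adjusted p = 0.965), or 0.13 without TC replicate 3. An unnamed gene on the opposite strand, ENSG00000275719, overlaps 23.4% of the exon bases of SLC1A5.

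SLC1A4 had 813, 562 and 844.5 CPM in the CC libraries, 553, 509 and 533 in those of TC, 400.1, 391 and 352.5 in those of PC and 415, 399.5 and 504 in those of RC. The 3 TC libraries were all below the lowest CC library by a small margin, and the PC libraries were lower again. SLC1A4 fell by 0.48 in TC (SE 0.14, adjusted p = 0.00795) and by 0.96 in PC (adjusted p = 5.03e-05). The step of -0.48 from TC to PC passed with an adjusted p of 0.0233, which rose to 0.0719, 0.057 and 0.0902 when TC replicate 1, PC replicate 2 or PC replicate 3 was left out. There were 0.617 to 0.659 SLC1A5 reads per SLC1A4 read in CC, 0.117 to 0.175 in TC, 0.185 to 0.233 in PC and 0.580 to 0.646 in RC.

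The third member of that family, SLC1A3 (EAAT1), takes up glutamate and aspartate together with sodium. It was scarce, with 169 to 357 reads per library in CC and 31 to 67 in TC and PC. Its level was 4.17, 4.45 and 7.55 CPM in the CC libraries, 1.17, 1.48 and 1.25 in those of TC, 0.811, 1.11 and 1.09 in those of PC and 4.33, 4.84 and 5.56 in those of RC. TC and PC lay below CC in every library, and RC fell within the CC range. SLC1A3 fell by 2.05 in TC (SE 0.24, adjusted p = 1.02e-05) and by 2.42 in PC (adjusted p = 2.62e-06).

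Of the sodium-coupled neutral carriers, SLC38A1 (SNAT1) changed more than any other member. It had 409, 271 and 533 CPM in the CC libraries, 18.4, 16.8 and 16.2 in those of TC, 6.83, 5.74 and 6.15 in those of PC and 129, 141 and 174 in those of RC. The groups did not overlap at any step. In TC, SLC38A1 fell by 4.56 (SE 0.22, adjusted p = 4.51e-09), a 23.6-fold drop, and 0.842% of the tested genes had a lower log2 fold change. In PC it fell by 6.02 relative to CC (SE 0.24, adjusted p = 1.00e-09), a 65.0-fold drop, and by 1.46 relative to TC (adjusted p = 0.000501).

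SLC38A2 (SNAT2), which is induced when amino acids run short, had 303, 241 and 681 CPM in the CC libraries, 104.5, 115 and 192 in those of TC, 114, 108 and 107 in those of PC and 261, 281 and 309.9 in those of RC. CC replicate 3 and TC replicate 3 stood above the other libraries of their groups. SLC38A2 fell by 1.57 in TC (SE 0.33, adjusted p = 0.00108) and by 1.90 in PC (adjusted p = 0.000268). Without CC replicate 3 these log2 fold changes were -0.98 (adjusted p = 0.00139) and -1.30 (adjusted p = 0.000178). SLC38A1 gave 0.783 to 1.35 reads per SLC38A2 read in CC, 0.0842 to 0.176 in TC, 0.0532 to 0.0600 in PC and 0.495 to 0.561 in RC, so that SLC38A1 lost ground to SLC38A2 in each of the drug-exposed groups.

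The glycine transporter SLC6A9 (GLYT1) had 1 to 16 reads per library. The counts were 4, 3 and 16 in the CC libraries, 7, 6 and 6 in those of TC, 7, 15 and 8 in those of PC and 5, 3 and 1 in those of RC. At this depth, 3 reads correspond to 0.0534 to 0.0785 CPM. With the filter loosened to a summed count of 2, SLC6A9 had a log2 fold change of -0.19 in TC relative to CC (SE 0.67, adjusted p = 0.874), and no difference of it could be detected at this depth in TC, PC or RC relative to CC.

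After 2 drug-free days, the transporters had not returned. In PC relative to CC, all 9 tested members fell and none rose, when 35.9% of all tested genes fell and 33.2% rose. Beyond 1.5-fold, 8 members fell and none rose, against 19.9% and 17.2% of all genes, and SLC7A5 was the tested member outside the 8. The median of the members was -2.21, and that of all genes was -0.04. Directly between PC and TC, 4 members were lower in PC (SLC38A1, SLC7A5, SLC3A2 and SLC1A4) and none was higher, when 12.5% of all genes were lower and 12.2% higher. The 3 members that had moved least with the drugs present, SLC7A5, SLC3A2 and SLC1A4, were among the 4 that moved after their removal, in comparisons that share the TC libraries. SLC1A5, SLC7A11, SLC1A3, SLC38A2 and SLC7A1 did not pass the test between PC and TC, with log2 fold changes of -0.37 to 0.40.

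**Figure D3:**
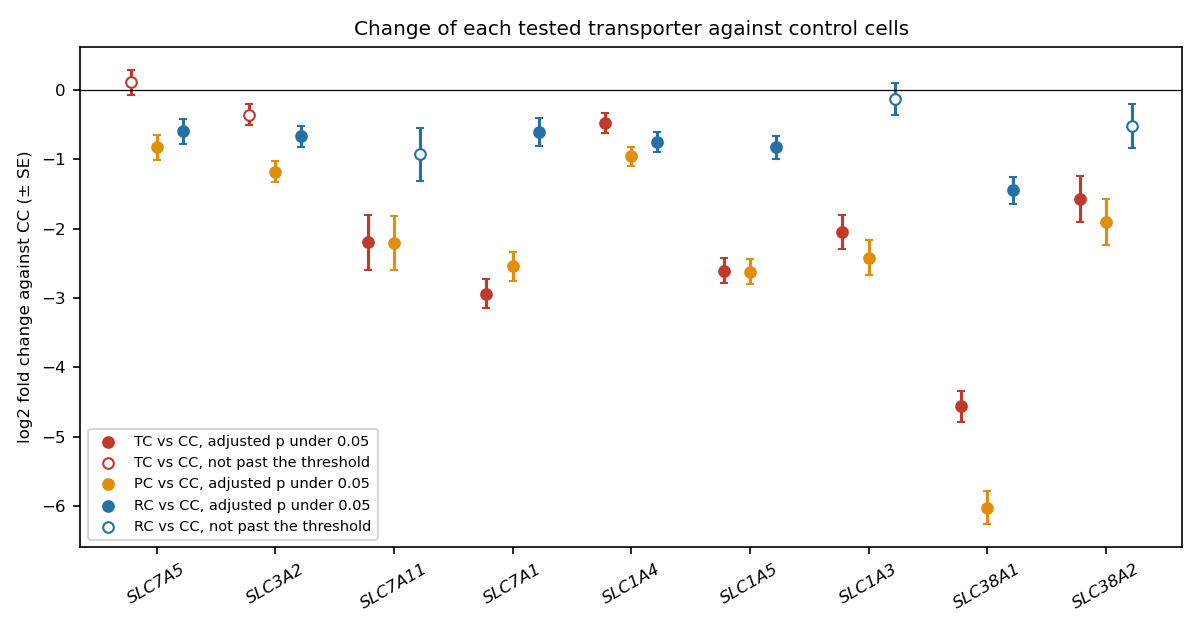
Log2 fold change relative to CC (vertical) of the 9 tested transporters (horizontal) in TC, PC and RC, from edgeR, with bars of 1 SE on each side. Filled circles passed an adjusted p of 0.05 and open circles did not. In TC, SLC7A5, SLC3A2 and SLC1A4 lie between -0.48 and 0.11 and the other 6 between -4.56 and -1.57.

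Between 2 and 9 drug-free days, most of the transporters came back. In RC relative to PC, 7 of the 9 tested members rose and none fell, when 35.7% of all tested genes rose and 34.2% fell. The rise was 4.57 on the log2 scale for SLC38A1 (SE 0.23, adjusted p = 5.14e-09), 2.29 for SLC1A3, 1.94 for SLC7A1, 1.79 for SLC1A5, 1.37 for SLC38A2, 1.28 for SLC7A11 (SE 0.38, adjusted p = 0.0103) and 0.51 for SLC3A2 (SE 0.15, adjusted p = 0.00935). SLC7A5 and SLC1A4 gave 0.23 (SE 0.18, adjusted p = 0.266) and 0.20 (SE 0.14, adjusted p = 0.199), and their RC and PC libraries overlapped.

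The return was incomplete at day 9. In RC relative to CC, 6 of the 9 tested members were still lower and none was higher, when 19.1% of all tested genes were lower and 18.2% higher. Only SLC38A1 was lower beyond 1.5-fold, at 36.6% of its control level (-1.45, SE 0.19, adjusted p = 0.000186), and none was higher, against 2.52% and 1.35% of all genes. Without CC replicate 2 this count was 3. SLC1A5 was lower by 0.83 (SE 0.17, adjusted p = 0.00279), SLC1A4 by 0.75 (SE 0.14, adjusted p = 0.00124) and SLC3A2 by 0.67 (SE 0.15, adjusted p = 0.00465), and for these 3 genes and SLC38A1 no RC library reached the lowest CC library. The values of SLC7A1 (-0.61, adjusted p = 0.0287) and SLC7A5 (-0.60, adjusted p = 0.0209) lost their call when CC replicate 1, CC replicate 3, RC replicate 1 or RC replicate 2 was left out and when only RC and CC were fitted (adjusted p = 0.0809 and 0.0681), and without CC replicate 3 they were -0.38 and -0.40. The value of SLC7A11 (-0.93, adjusted p = 0.0714) gained a call without CC replicate 2 (-1.20), TC replicate 1 or TC replicate 3 (-0.93 each). SLC38A2 (-0.52, adjusted p = 0.224) and SLC1A3 (-0.13, adjusted p = 0.678) turned to 0.07 and 0.19 without CC replicate 3.

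In CC and RC, most of the transporters were lowest in 1 library and highest in another. CC replicate 2 had the lowest level of 8 of the 9 tested members and CC replicate 3 the highest of all 9. In RC, replicate 1 was the lowest for 8 and replicate 3 the highest for 9. How often these libraries were lowest or highest over all tested genes was not counted. The order may therefore not be particular to the transporters. Summed over the 10 members, the levels were 3864, 2594 and 4793 CPM in the CC libraries, 1898, 1936 and 2270 in those of TC, 1384, 1307 and 1222 in those of PC and 2031, 2130 and 2531 in those of RC. Every library of the drug-exposed groups lay below the lowest CC library on this sum. SLC7A5 supplied 21.4% to 23.0% of the members' reads in CC, 43.2% to 44.2% in TC, 34.6% to 37.3% in PC and 24.2% to 24.7% in RC.

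Among genes known as ATF4 targets that are not transporters, CC replicate 2 was the lowest library of its group for 21 of 23. CC replicate 3 was the highest for 12 of them and CC replicate 1, which was the highest for none of the 9 members, for 10. In RC, replicate 1 was the lowest for 20 and RC replicate 3 the highest for 21. Such counts were not made over all tested genes, so no link between the 2 lists is read from them. The summed level of the ATF4 targets was 3076, 2125 and 3300 CPM in the CC libraries and 829, 840 and 805 in those of TC. It was 861, 884 and 872 CPM in the PC libraries and 1308, 1544 and 1805 in those of RC. In TC relative to CC, 19 of the 23 tested fell and 3 rose, and the median log2 value of these differences was -2.61. For PC, 18 fell and 3 rose (median -2.59), and for RC, 20 fell and none rose (median -0.90). Among all tested genes, 34.7% were lower under MAPKi and 33.2% were higher. Persister cells had 35.9% of all tested genes below CC and 33.2% above. For recovered cells, these shares were 19.1% and 18.2%. Examples of the ATF4 targets are CHAC1, which degrades glutathione (-5.47 in TC), and PHGDH, the first enzyme of serine synthesis (-4.03). Among those that rose in TC were the factors ATF3 (3.15) and ATF5 (1.05).

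ATF4 itself had a mean of 639 CPM in CC and 189.7 in TC. It fell by 1.75 in TC (SE 0.13, adjusted p = 1.41e-07), by 1.57 in PC and by 0.93 in RC (adjusted p = 0.000196). ATF4 was thus called lower in all drug-exposed groups, as were SLC38A1, SLC7A1, SLC1A5 and SLC1A4 among the members. The RC call of SLC7A1 held in only 13 of 18 alternatives. MYC fell by 3.71 in TC (adjusted p = 8.81e-10), by 3.23 in PC and by 0.50 in RC. NFE2L2 had log2 fold changes of 0.05 in TC (adjusted p = 0.654), -0.24 in PC (adjusted p = 0.0344) and -0.16 in RC (adjusted p = 0.2), while KEAP1, which marks NRF2 for degradation, rose by 0.92 in TC and the kinase EIF2AK3 (PERK), which acts upstream of ATF4, by 0.51. Of the 10 tested regulators, 4 rose and 3 fell in TC, 4 rose and 3 fell in PC, and 3 rose and 4 fell in RC, when 33.2% of all tested genes rose and 34.7% fell in TC. The shares over all genes were 33.2% and 35.9% for PC and 18.2% and 19.1% for RC, and the counts in TC and PC are near them. RNA levels do not report the activity of these proteins, and their part in the fall of the transporters was not tested.

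Calls in both directions were found among the other transporters of the plasma membrane. Of 32 listed, 14 were tested, of which 5 rose and 8 fell in TC, 5 rose and 6 fell in PC, and 2 rose and 6 fell in RC. The counts in PC are near the shares over all tested genes, 33.2% and 35.9%. With the drugs present, 33.2% of all tested genes rose and 34.7% fell. The rises in TC are near that share and the falls lie above it. At day 9, 18.2% of all tested genes stood higher than CC and 19.1% lower. The falls in RC lie above the latter share. These differences from the shares were not tested. SLC16A10, an aromatic amino acid carrier, fell by 2.82 in TC and SLC6A15, a carrier of branched-chain amino acids and proline, by 2.46. SLC7A8 (LAT2), the paralog of SLC7A5 that shares its heavy chain, rose by 1.48 in TC (SE 0.11, adjusted p = 2.09e-07), from 23.6 to 65.95 CPM. SLC38A3 (SNAT3), a relative of SLC38A1 that carries glutamine, had 1 or 2 reads per library in CC, 131 to 396 in TC, at most 367 in PC and 0 in RC. Its mean was 5.48 CPM in TC and 7.62 in PC, while SLC38A1 in the same libraries stood at 17.1 and 6.24. These levels are not scaled to gene length, so they do not rank the 2 genes by molecules.

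Transporters of inner membranes were listed as well. Of the 8 tested genes of the lysosomal list, 6 rose and none fell in TC (median 0.62), 5 rose and 1 fell in PC, and none was called in RC. The 1 that fell in PC was SLC38A6, with means of 6.16 CPM in CC and 4.21 in PC. That SLC38A6 acts in lysosomes was not shown here. Under MAPKi, 33.2% of the whole set of tested genes rose and 34.7% fell. After 2 drug-free days, 33.2% of that set stood above CC and 35.9% below it. By day 9 the shares had dropped to 18.2% above and 19.1% below. MFSD12, needed for the import of cysteine into melanosomes and lysosomes, rose by 2.02 in TC, from a mean of 354 to 1433 CPM, and SLC29A3, a lysosomal nucleoside carrier kept in this list, by 1.72. Of the 11 tested mitochondrial carriers, 5 rose and 4 fell in TC, 5 rose and 4 fell in PC, and 3 rose and 2 fell in RC, and beside the shares over all tested genes nothing is read from these counts. The glutamate carriers SLC25A22 (0.72) and SLC25A18 (0.68) rose in TC, whereas the serine carrier family member SFXN2 (-2.36) and the ornithine carrier SLC25A15 (-1.01) fell.

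**Figure D4:**
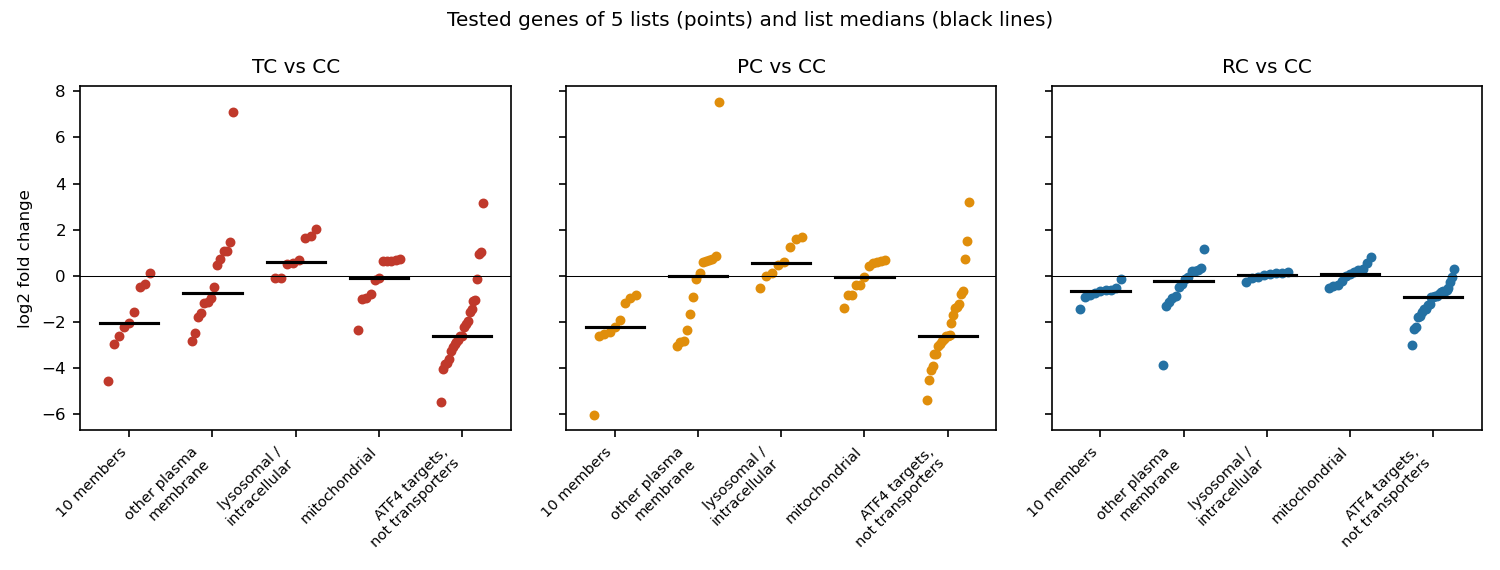
Log2 fold changes (vertical) of the tested genes of 5 lists (horizontal) in TC, PC and RC relative to CC. Points are genes in order of their value and black lines are list medians. In TC the medians are -2.05 for the members, 0.62 for the lysosomal list and -2.61 for the ATF4 targets. The highest point in TC and PC is SLC38A3, with 1 or 2 reads per CC library, whose plotted value depends on how such low counts are handled.

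Genes that use the imported amino acids were also measured. Of the 6 tested genes of glutamine and glutamate use, 5 fell and none rose in TC. All 6 fell in PC, while 2 fell and 1 rose in RC. The list shares ASNS with the ATF4 targets, and ASNS had its lowest value in TC (-2.63). Falls under MAPKi were called for 34.7% of all tested genes and rises for 33.2%. The matching shares were 35.9% and 33.2% after 2 drug-free days, then 19.1% and 18.2% at day 9. Nothing is read from the RC counts of this list, which are small. The transaminase GOT1 fell by 1.53 in TC. The 10 genes of the glutathione list, which include SLC7A11 and share CBS, CHAC1 and CTH with the ATF4 targets, divided into 5 that rose and 5 that fell in TC. In PC, 4 of them rose and 5 fell, and in RC, 2 rose and 5 fell. Beside the shares over all tested genes, nothing is read from the counts of the glutathione list in TC and PC. GCLM, the modifier of the first step of glutathione synthesis, rose by 0.93 in TC, and GGT1, which cleaves extracellular glutathione, went from a mean of 0.264 to 6.14 CPM. CTH, which makes cysteine from cystathionine, fell by 3.08.

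Genes with a course like that of 2 members were looked up among 11914 genes with a mean count of at least 100, by the distance over the log2 fold changes in TC, PC and RC relative to CC. Nearest to SLC7A5 were ACADSB (distance 0.093) and VPS13C (0.141), with values of 0.10 and 0.01 in TC and -0.74 and -0.76 in PC. Nearest to SLC38A1 were LOXL4 (0.476), APOC1 (0.706) and SOD3 (0.732), with -4.80 to -4.36 in TC and -5.61 to -5.35 in PC. The 3 comparisons share the CC libraries.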

How the data were processed

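Cytoplasmic RNA of A375 cells (labels; the study's methods name total RNA) was depleted of rRNA and sequenced in pairs of reads. The authors trimmed reads with fastp 0.20.1, aligned them to GRCh38.p13 with HISAT2 2.2.1 and counted them on exons of the NCBI annotation with htseq-count (HTSeq 0.13.5). The deposited values are raw counts per gene. Strand setting and handling of reads with several alignments are not given in the sources used here, so reads shared with antisense genes or pseudogene copies may be miscounted.

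The members and gene lists were chosen with earlier results of these data known. All 12 libraries (37773389 to 55567097 counts) entered 1 quasi-likelihood model in edgeR 4.0.16 (R 4.3.3) with TMM factors and a mean per group (8 residual degrees of freedom). Genes with a mean scaled count of at least 10 were tested (15916 of 44659). Calls used a two-sided test at a Benjamini-Hochberg adjusted p under 0.05 over all genes tested, and glmTreat for 1.5-fold. SEs were derived from the F statistic. Libraries of a group differed by more than sampling noise. Exon lengths and overlaps came from GENCODE (GRCh38), promoter windows from RefSeq (GRCh38.p14). Beside the members, examples from each list are the called genes with a mean count of at least 100 that moved furthest in TC, at most 2 upward and 2 downward, and ATF4, MYC and NFE2L2 are always given. Some genes that these rules name are not reported here. Scripts were tested on simulated data. Alternatives were library totals, median-of-ratios factors, a looser filter (summed count of 2 or more), DESeq2 1.42.0, only the 2 groups compared, the replicate number as a block, and leaving out each library. The floor of 3 reads covers counting error only.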

Additional observations from a re-analysis of the deposited data

How the results depend on the processing

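Of 810 values of the members under 18 alternatives, 12 of which left out 1 library, 772 kept their direction and side of the threshold, 11 gained a call, 13 lost one and 14 changed sign, none of these 14 from or to a called value. When only the 2 groups compared were fitted, the count lower beyond 1.5-fold in RC relative to CC was 0 and the count higher in PC relative to TC was 1 (SLC7A1). With a summed count of 2 as the filter, 1 member (SLC6A9, -1.86, adjusted p = 0.0462) was lower in RC relative to PC. Leaving out 1 library gave 7 to 8 members lower in TC, 9 in PC, 4 to 7 in RC (1 to 3 beyond 1.5-fold), 3 to 4 lower and 0 to 1 higher in PC relative to TC, and 7 higher in RC relative to PC. Signs changed for SLC7A5 in TC (-0.11 without CC replicate 2, range -0.11 to 0.30 over the libraries left out), SLC38A2 and SLC1A3 in RC (0.07 and 0.19 without CC replicate 3, ranges -0.79 to 0.07 and -0.29 to 0.19), and, in PC relative to TC, for SLC7A11 (0.02 with library totals, 0 with median-of-ratios factors, 0.01 with DESeq2, -0.31 to 0.56 with 1 library left out) and SLC1A5 (0.01, 0 and 0 likewise, -0.13 to 0.13 with 1 library left out). The cause was not tested.

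Same-numbered libraries correlated at -0.11 to 0.28 in their deviations from the group means, over 0.1 in 2 of 15 pairs, so the numbers were not taken as pairing. Both of these pairs were between PC and TC (0.28 and 0.26, with 0.07 for the other). There, each library correlated best with its own number (other numbers -0.24 to -0.02). This is a hint from the data, and the labels do not say whether the numbers mark shared cultures. With the replicate number as a block, SLC3A2 in TC (-0.35, adjusted p = 0.0491) and SLC7A11 in RC (-0.95, adjusted p = 0.0243) gained a call, SLC7A11 in PC relative to TC became 0.12, and no other call of a member changed, those between PC and TC included. SLC3A2 in TC was also called with library totals (adjusted p = 0.0422) and DESeq2 (adjusted p = 0.0335). The scaling alternatives moved the median of all genes by at most 0.029. Depth limited only SLC6A9 and, less so, SLC1A3.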
